A study of Homo sapiens with 2 samples.

Results

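Caspases are cysteine proteases that are made as inactive zymogens and cut one another and other proteins when a cell dies or meets a pathogen. Initiator caspases are activated on adaptor platforms (caspase-8 at death receptors, caspase-9 on the apoptosome, caspase-2 on the PIDDosome), executioner caspases dismantle the cell, and inflammatory caspases respond to bacterial products. Most of this control acts on the proteins by assembly, cleavage and inhibition, and transcript levels show only how much of each template the cell carried.

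The group examined here held 8 genes of 41582 that carried a value, listed by symbol, with no cut on a measured value but with earlier results of these data known. They were the initiators *CASP2*, *CASP8* and *CASP9*, the executioner *CASP6*, the inflammatory *CASP4*, the caspase inhibitor *XIAP*, the caspase-8 regulator *CFLAR* (c-FLIP) and *DIABLO* (Smac), the mitochondrial antagonist of XIAP. RNA sequencing was performed on U87, an established human glioblastoma cell line of wild-type genotype (WT) as labelled, grown in RPMI with fetal bovine serum. One culture was treated with CCA-1.1 (chemoprevention curcumin analog 1.1) and the other with DMSO, the solvent control, each for 72 h. There was 1 library per condition, and the CCA-1.1 dose used for sequencing is not given in the sources used here. With no replicate, no difference below has an error estimate or a test, and every value describes this pair of libraries. Levels are TPM, a length-normalised transcript abundance that sums to the same total in each library, added up over the transcripts of a gene. Differences are log2((CCA-1.1 TPM + 1) / (DMSO TPM + 1)), and a difference past 2-fold is one above 1 or below -1. In such bulk RNA, fewer cells carrying a transcript and less of it per cell cannot be told apart.

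The expressed markers were partly those of a glioma line. Of 7 astroglial and glioma markers, 5 reached 1 TPM in either library, with summed levels of 3840 TPM (DMSO) and 3596 TPM (CCA-1.1), nearly all of it *VIM* and *CD44*. The astrocyte markers *GFAP* (0.41 and 0.57 TPM) and *S100B* (listed at 0 in both) were near absent. Of 6 markers of other cell types, 4 reached 1 TPM, with sums of 547.1 and 445.7 TPM that were mostly *CD68* and *SYP*, while *PTPRC* and *EPCAM* were near 0. The part of these marker differences in the results below was not tested.

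The sequences around the catalytic residue are shown first because they separate the proteases of the group from *CFLAR*, which is built like caspase-8 but has no protease activity. Each stretch is from the coding sequence of a GENCODE transcript, 5′ to 3′, with the codon of the catalytic cysteine in capitals. For *CFLAR* the capitals mark the tyrosine codon that stands in its place.
CASP2, codon 320: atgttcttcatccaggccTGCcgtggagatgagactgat
CASP8, codon 360: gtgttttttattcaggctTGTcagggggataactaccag
CASP9, codon 287: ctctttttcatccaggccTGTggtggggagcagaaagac
CASP6, codon 163: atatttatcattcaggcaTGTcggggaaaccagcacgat
CASP4, codon 258: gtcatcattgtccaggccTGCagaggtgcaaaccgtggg
CFLAR, codon 360: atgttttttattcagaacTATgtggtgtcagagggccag
A second short stretch is shared by partners of XIAP, which binds a tetrapeptide at the start of the processed DIABLO protein and of the small subunit of cleaved caspase-9. The 4 codons of this IAP-binding motif are in capitals, and the codon number is that of the first.
DIABLO, codon 56: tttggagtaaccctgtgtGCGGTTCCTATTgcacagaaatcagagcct
CASP9, codon 316: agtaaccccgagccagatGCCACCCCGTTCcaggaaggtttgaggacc

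All 8 genes were expressed in both libraries, and their levels were close between them. *CASP4* was the most abundant, followed by *CFLAR*, *DIABLO* and *XIAP*, all at 50 TPM or more, and the other 4 members were under 20 TPM in both libraries. The order from *CASP4* down to *CASP6* was the same with DMSO and with CCA-1.1. Whether neighbours in that order differ beyond the spread between cultures could not be tested. In the CCA-1.1 library 5 members were higher and 3 were lower, *CASP8* among the higher only while its model and non-coding transcripts were counted. Of the 8, 0 were past 2-fold, where 2.1% of the 30301 genes above 0 and 0.341% of 12041 protein-coding genes averaging 1 TPM or more were past it. The median difference of the members was 0.07, or 0.02 with curated transcripts only and 0.0014 with mRNA transcripts only. With all transcripts summed, the median over all genes above 0 was 0.03 and that over those protein-coding genes was 0.02. These background medians are not given for the curated or mRNA settings, so only the 0.07 is set beside them on like terms. Each member was also set beside the protein-coding genes whose mean level lay within 2-fold of its own, called genes of like level here, and all 8 lay between the 5th and the 95th percentile of their differences.

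**Figure D1:**
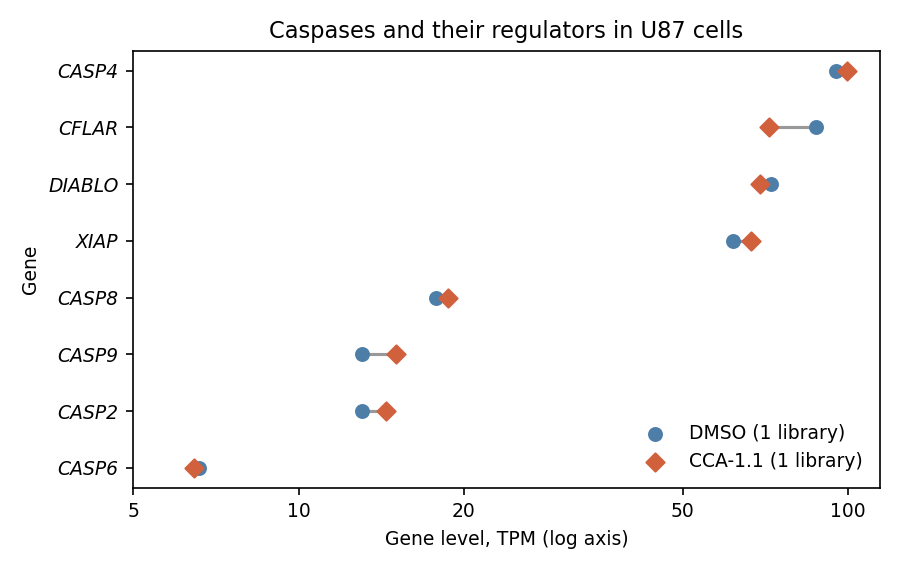
Gene-level abundance of the 8 genes in TPM (log axis) in the DMSO library (circles) and the CCA-1.1 library (diamonds), 1 library each, so no error bars are drawn. The line joining the points is longest for CFLAR, from 87.43 TPM down to 71.76 TPM, and the order of the genes is the same in both libraries.

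**Figure D2:**
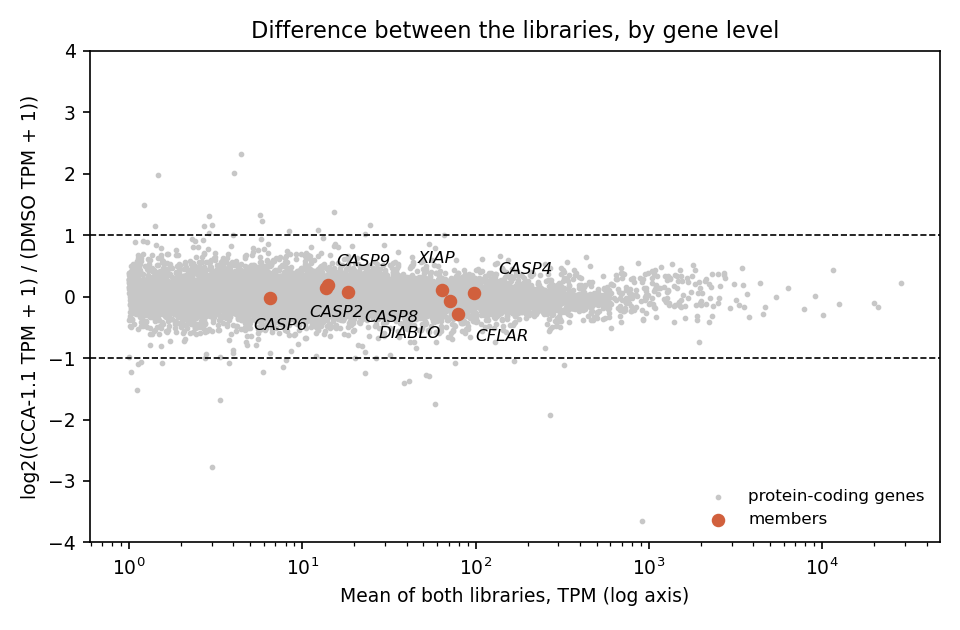
Difference between the libraries, log2((CCA-1.1 TPM + 1) / (DMSO TPM + 1)), against mean level in TPM (log axis) for 12041 protein-coding genes averaging 1 TPM or more (grey), with the 8 members in colour and 2-fold marked by dashed lines. The members sit within the grey band, from -0.28 for CFLAR to 0.19 for CASP9, with all transcripts summed.

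Among the initiator caspases, all 3 were slightly higher in the CCA-1.1 library, *CASP8* only while its model and non-coding transcripts were counted. *CASP9* (Entrez 842, GRCh38.p14 chr1:15491401-15524912), the protease of the apoptosome, was at 13.07 TPM with DMSO and 15.03 TPM with CCA-1.1, a difference of 0.19. With all transcripts summed this was the highest difference of the 8 members, and 80.7% of genes of like level lay below it, but with curated transcripts only it was 0.07, below *CASP2*, *XIAP* and *CASP4*. *CASP2* (Entrez 835, chr7:143288351-143307696), the caspase of the PIDDosome, was at 13.04 and 14.42 TPM, a difference of 0.14. *CASP8* (Entrez 841, chr2:201233463-201287711), the apical caspase of death receptors, was at 17.8 and 18.72 TPM, a difference of 0.07 that became -0.21 with curated transcripts only and -0.06 with mRNA transcripts only. *CASP2* and *CASP9* stood at nearly the same level with DMSO, and *CASP8* above both.

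The transcripts of the initiators showed where these small differences lay. *CASP2* came mostly from NM_032982.4, at 10.88 and 11.05 TPM, while NM_001224.5 was at 1.96 and 3.37 TPM (0.56). The leading transcript therefore held 83.4% of the gene with DMSO and 76.6% with CCA-1.1. *CASP9* was led by NM_001278054.2, at 4.73 and 5.48 TPM, and by NM_001229.5, which encodes the full-length alpha form, at 3.9 and 4.74 TPM. NM_032996.3, the beta form that lacks much of the catalytic part, was at 1.22 and 0.70 TPM (-0.39), or 9.33% and 4.66% of the gene. The non-coding NR_102732.2 was also lower with CCA-1.1, at 1.59 and 0.89 TPM (-0.45), and the model XR_007064158.1 was at 1.42 and 1.82 TPM. The transcripts taken as the alpha and the beta form thus differed in opposite directions at low levels. Their forms were named from general knowledge of RefSeq. Reads shared between transcripts are divided by estimation, and whether these directions exceed the spread between cultures could not be tested.

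*CASP8* was spread over 70 listed transcripts, of which 35 were at 0 in both libraries. Its leading transcript, NM_001372051.1, was at 3.13 and 3.18 TPM and held 17.6% and 17.0% of the gene. NM_001400656.1 was close to it, at 2.66 and 2.57 TPM, and NM_001400676.1 (1.7 and 1.26 TPM) and NM_001400678.1 (1.43 and 1.02 TPM) were lower with CCA-1.1. Some curated transcripts of *CASP8* were higher, but the curated transcripts together were lower with CCA-1.1 (-0.21). The net higher level of the gene lay in predicted models, which held 13.7% of *CASP8* with DMSO and 29.5% with CCA-1.1. Among them, XM_011511969.3 was at 0.1 and 1.35 TPM (1.095), XR_007082539.1 at 1.01 and 2.17 TPM (0.66) and XR_007082538.1 at 1.01 and 1.21 TPM. Reads shared by so many similar transcripts are divided by estimation, and 12 transcripts were listed at 0 only with CCA-1.1 and 4 only with DMSO.

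The executioner *CASP6* (Entrez 839, chr4:109664388-109709767), which cleaves nuclear lamins, was the least abundant member and nearly equal between the libraries, at 6.59 TPM with DMSO and 6.44 TPM with CCA-1.1 (-0.03, and -0.15 with mRNA transcripts only). Its mRNA NM_001226.4 was at 4.63 and 4.17 TPM, or 70.3% and 64.8% of the gene, and the non-coding NR_133012.2 was at 1.14 and 1.64 TPM, or 17.3% and 25.5%. The overlapping gene *MCUB* was at 4.13 and 3.49 TPM, and whether strand was used in quantification is not given in the sources used here.

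The inflammatory *CASP4* (Entrez 837, chr11:104942866-104968574), which binds bacterial lipopolysaccharide in the cytosol and cleaves gasdermin D, stood far above the other caspases. It was at 95.12 TPM with DMSO and 99.62 TPM with CCA-1.1, a difference of 0.07. This was 65.3% and 64.6% of the summed TPM of the 5 caspases, which came to 145.6 and 154.2 TPM. The ratio of *CASP4* to *CASP6* was 14.4 with DMSO and 15.5 with CCA-1.1. Nearly all of *CASP4* was 1 transcript, NM_001225.4, at 91.57 and 96.26 TPM or 96.3% and 96.6% of the gene. NM_033306.3 (1.48 and 1.88 TPM) and the model XM_011543019.2 (2.07 and 1.48 TPM) made up the rest, and the related pseudogene *CASP4LP* was at 0.77 and 0.39 TPM.

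*XIAP* (Entrez 331, chrX:123859708-123913972), which binds and blocks caspase-9 and executioner caspases, was at 61.89 TPM with DMSO and 66.54 TPM with CCA-1.1 (0.10). A trio of mRNA transcripts with similar shares made up most of it, and their order differed between the libraries. NM_001204401.2 led with DMSO, at 19.44 TPM against 18.41 TPM with CCA-1.1. NM_001167.4 led with CCA-1.1, at 17.32 and 23.32 TPM (0.41), or 27.99% and 35.05% of the gene. NM_001378591.1 was at 18.34 and 19.54 TPM and lay between them with CCA-1.1. The non-coding NR_037916.2 was at 3.72 and 2.13 TPM (-0.59), and the non-coding share of the gene was 7.64% and 4.66%. NM_001378590.1 and NR_165803.1 were each within 0.11 TPM between the libraries.

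*DIABLO* (Entrez 56616, chr12:122207662-122227456), whose protein leaves the mitochondria during apoptosis and releases caspases from XIAP, was at 72.56 TPM with DMSO and 69.25 TPM with CCA-1.1 (-0.07). It was led by NM_001371333.1, at 66.28 and 62.7 TPM, which held 91.4% and 90.5% of the gene. NM_001278342.1 (3.24 and 3.59 TPM) and NM_001278304.2 (1.55 and 1.71 TPM) were higher with CCA-1.1, against the direction of the gene. The overlapping *B3GNT4* was at 3.11 and 4.39 TPM. The ratio of *DIABLO* to *XIAP*, antagonist to inhibitor, was 1.17 with DMSO and 1.04 with CCA-1.1.

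*CFLAR* (Entrez 8837, chr2:201116164-201176687) had the lowest difference of the 8 members. It encodes c-FLIP, which joins caspase-8 at death receptors and controls its activation, and it lies near *CASP8* on chromosome 2. It was at 87.43 TPM with DMSO and 71.76 TPM with CCA-1.1, a difference of -15.67 TPM or -0.28 on the log2 scale. This was 0.821 times the DMSO level and close to the 5th percentile of the 2717 genes of like level, -0.29, with 5.74% of them lower. The ratio of *CFLAR* to *CASP8* was 4.91 with DMSO and 3.83 with CCA-1.1, a log2 change of -0.36 that was -0.16 with mRNA transcripts only and -0.06 with curated transcripts only, where the ratios were 5.04 and 4.83. The ratio of *XIAP* to *CASP9* was 4.74 and 4.43 but 5.31 and 5.44 with curated transcripts only, so its direction turned. That of *XIAP* to *CASP6* was 9.39 and 10.3, and 10.5 and 13.2 with mRNA transcripts only.

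Most of the *CFLAR* difference was assigned to 1 transcript, NM_001127184.4, which is known as that of its short form. *CFLAR* had 43 listed transcripts, and reads that they share are divided between them by estimation. The levels of its single transcripts given here and below are therefore estimates, less certain than the level of the gene. The gene makes a long protein of 480 codons that keeps the inactive caspase-like part, and a short form, c-FLIPS, of 221 codons that ends after the death effector domains. The coding sequences are shared over 606 bases and part at base 607. The short form then ends with 60 bases of its own, stop codon included. The stretches below start with 30 shared bases in lower case and continue with those of each form in capitals, since this is the point where the coding sequences part.
CFLAR short form: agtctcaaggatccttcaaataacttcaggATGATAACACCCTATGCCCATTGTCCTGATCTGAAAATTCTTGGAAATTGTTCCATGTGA
CFLAR long form: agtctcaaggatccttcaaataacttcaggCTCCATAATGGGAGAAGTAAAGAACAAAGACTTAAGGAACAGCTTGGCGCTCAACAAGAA

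NM_001127184.4 was taken as the short-form transcript from general knowledge of RefSeq, since no table used here pairs it with the GENCODE sequence printed above. It was at 22.1 TPM with DMSO and 11.07 TPM with CCA-1.1. The difference of -0.94 lay just inside the 2-fold line, and it was -0.991 with a pseudocount of 0.1 TPM and -0.997 with none. Its share of the gene was 25.3% and 15.4%, and its share of the mRNA transcripts of *CFLAR*, which summed to 65.3 and 55.59 TPM, was 33.8% and 19.9%. The difference of -11.03 TPM equalled 70.4% of the net difference of the gene. Of 7156 transcripts whose mean level lay within 2-fold of its own, 89 (1.24%) had a lower difference, and their 5th and 95th percentiles were -0.50 and 0.54. This transcript was singled out after its values had been seen.

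The other coding transcripts of *CFLAR* were level. Together they were at 43.2 TPM with DMSO and 44.52 TPM with CCA-1.1 (0.04). NM_001351591.2, the leading transcript, was at 24.78 and 25.04 TPM, or 28.3% and 34.9% of the gene, and NM_001351590.2 was at 10.67 and 10.5 TPM. The ratio of the short-form transcript to NM_001351591.2 was therefore 0.892 with DMSO and 0.442 with CCA-1.1. Which form NM_001351591.2 encodes is not given in the sources used here, so this cannot be read as a ratio of short to long form. NM_001308043.2 (2.81 and 3.19 TPM), NM_001202518.2 (1.54 and 1.57 TPM) and NM_001308042.3 (1.5 and 1.67 TPM) were slightly higher with CCA-1.1. NM_003879.7, known as the reference transcript of the long form, was listed at 0 with DMSO and was at 0.28 TPM with CCA-1.1, so the long and the short form could not be compared through it.

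The non-coding transcripts of *CFLAR* were lower together, at 22.13 TPM with DMSO and 16.17 TPM with CCA-1.1 (-0.43), which equalled 38.03% of the net difference. NR_147252.2 was at 6.35 and 4.04 TPM (-0.54), XR_007083735.1 at 1.43 and 0.35 TPM (-0.85) and XR_007083740.1 at 1.16 and 0.49 TPM (-0.54). NR_147241.2 was at 1.74 TPM with DMSO and listed at 0 with CCA-1.1. XR_007083745.1 went the other way, at 2.99 and 3.35 TPM, and the remaining non-coding transcripts of at least 1 TPM were within 0.30 TPM between the libraries. The antisense gene *CFLAR-AS1*, whose position overlaps that of *CFLAR*, was at 1.17 and 0.37 TPM. Reads from any sequence that both genes share cannot be told apart without strand.

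**Figure D3:**
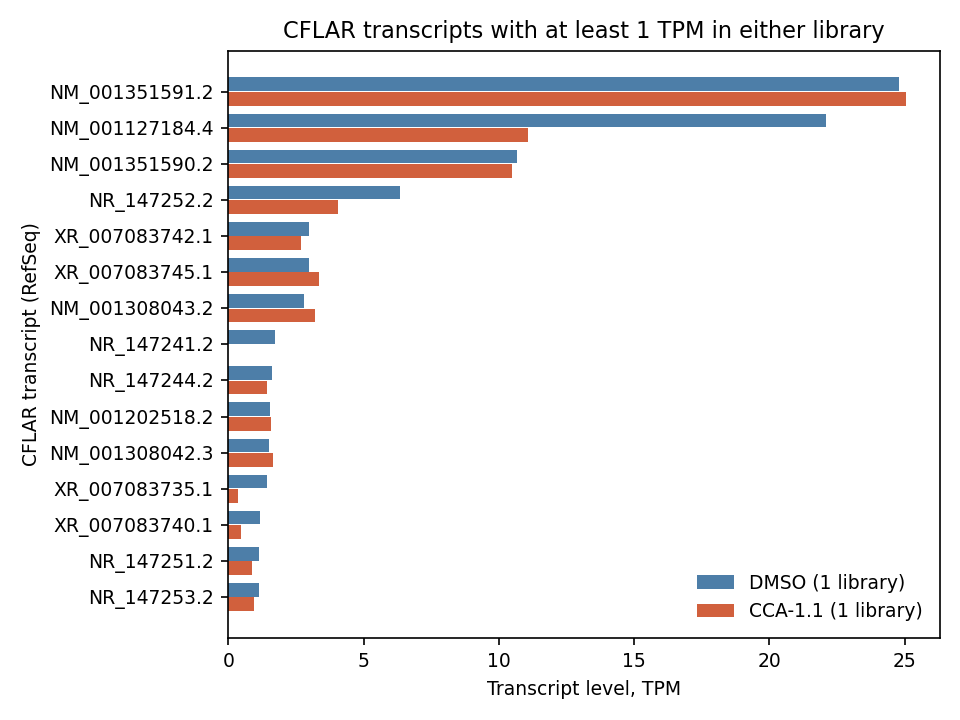
Level in TPM of the 15 CFLAR transcripts with at least 1 TPM in either library, with paired bars from 0 for the DMSO and the CCA-1.1 library (1 library each, no error bars). The bars differ most for NM_001127184.4, taken as the short form, at 22.1 and 11.07 TPM, while those of NM_001351591.2 are nearly equal at 24.78 and 25.04 TPM.

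The members held 147 listed transcripts, of which 101 were above 0 in either library, and 2 of the 101 (1.98%) were past 2-fold. The share over all 98044 transcripts above 0 was 4.05%. The 2 were XM_011511969.3 of *CASP8* (1.095) and NR_147241.2 of *CFLAR* (-1.45), a predicted and a non-coding transcript at low levels. Of the 37 member transcripts with a mean of at least 1 TPM, 0 were past 2-fold, where 7.04% of 34503 transcripts with such a mean were. *CASP4* and *DIABLO*, whose leading transcripts held 96.3% and 91.4% of the gene with DMSO, had nearly equal shares in both libraries. *CASP2* also had 1 dominant transcript, but its share was 83.4% with DMSO and 76.6% with CCA-1.1. The widest differences in share belonged to *CFLAR*, *CASP2*, *CASP6* and *XIAP*.

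**Figure D4:**
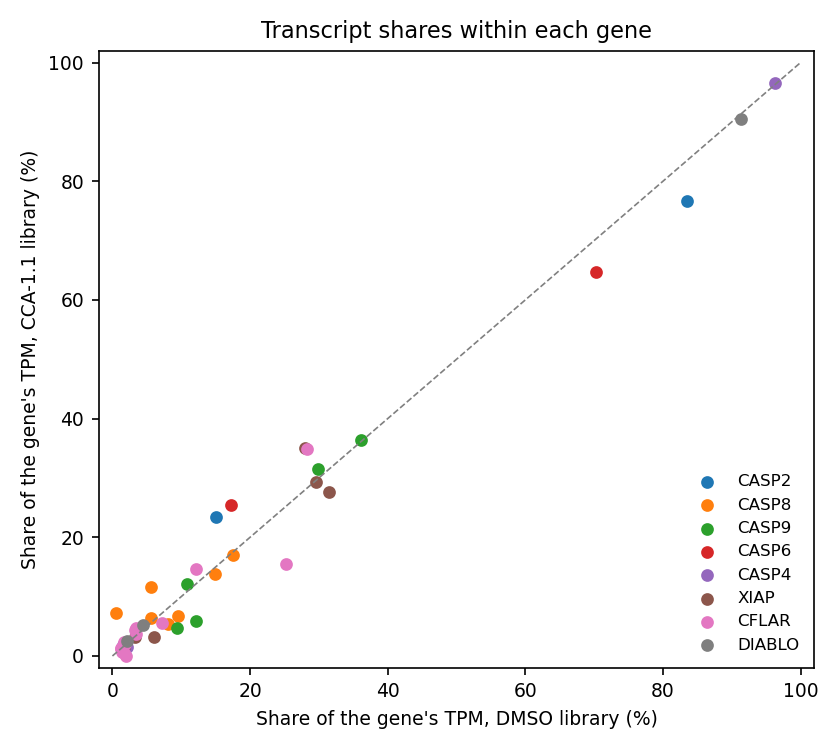
Share of its gene's TPM held by each member transcript with at least 1 TPM in either library, in the DMSO library (x axis, percent) and the CCA-1.1 library (y axis, percent), coloured by gene, with the line of equal shares dashed. NM_001225.4 of CASP4 lies near that line at 96.3% and 96.6%, and NM_001127184.4 of CFLAR lies below it at 25.3% and 15.4%.

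With all transcripts summed, the partners of the caspases were close between the libraries as well. Of 24 genes in 5 lists, 13 were higher, 10 were lower and 0 were past 2-fold, with a median difference of 0.04. Of the 30301 genes above 0, 2.1% were past 2-fold, and their median difference was 0.03. Among the 12041 protein-coding genes averaging 1 TPM or more the share was 0.341%, with a median of 0.02. No such background is given for curated or mRNA transcripts only. Several values of the partner genes depended on predicted model transcripts. The value with curated transcripts only is given where it turned the direction or moved by over 1.5 times. Among genes not described further, *BIRC6* turned from -0.07 to 0.07 and *PAK2* from -0.01 to 0.06 with curated transcripts only. *ACIN1* moved from -0.07 to -0.14. The counts of higher and lower genes therefore hold only with all transcripts summed. Apoptosome and mitochondrial factors had a median of 0.02, which became -0.25 with curated transcripts only, and ran from *ENDOG*, a mitochondrial nuclease, at 12.47 and 9.49 TPM (-0.36), to *APAF1*, the scaffold of the apoptosome, at 4.47 and 5.26 TPM (0.19, but -0.28 curated). *CYCS*, cytochrome c, was at 47.36 and 51.52 TPM. Both PIDDosome partners of caspase-2 were higher, with a median of 0.14. *PIDD1* was at 8.02 and 9.49 TPM (0.22) and *CRADD* at 12.11 and 12.76 TPM (0.07). The curated transcripts of *PIDD1* made up only 0.06 and 1.83 TPM, and their difference was past 2-fold at 1.42. With curated transcripts only the median of the list became 0.74, a value that rested mainly on these low *PIDD1* levels.

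Of the 4 death receptor adaptors that work with caspase-8 and c-FLIP, 3 were lower and 1 was higher, with a median of -0.08 that turned to 0.06 with curated transcripts only. *RIPK1*, a kinase of the tumour necrosis factor receptor complex, was lowest at 12.9 and 9.96 TPM (-0.34, but 0.12 curated), and *TRAF2* was highest at 29.6 and 31.04 TPM (0.07, and 0.12 curated). *FADD*, which binds caspase-8 directly, was at 50.45 and 45.47 TPM (-0.15), and *TRADD* was at 39.85 and 39.57 TPM (-0.01).

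The other members of the inhibitor of apoptosis (IAP) family and the IAP antagonist *XAF1* had a median of 0.17, which was 0.03 with mRNA transcripts only. With all transcripts summed, 4 of 6 were higher. *NAIP* was at 4.13 and 5.54 TPM (0.35, and 0.11 curated) and *BIRC3*, which encodes cIAP2, at 9.64 and 12.55 TPM (0.35). *BIRC5*, which encodes survivin and is made mainly in dividing cells, was the lowest of all 24 genes at 2.15 and 1.14 TPM (-0.56). The 6 effectors and substrates above 0 had a median of 0.04, which turned to -0.02 with curated transcripts only, and ran from *GSDMD*, which encodes gasdermin D, at 11.68 and 10.84 TPM (-0.10), to *DFFB*, a caspase-activated DNase, at 3.26 and 3.66 TPM (0.13, but -0.57 curated). *PYCARD*, the inflammasome adaptor, was listed at 0 in both libraries. These lists are described by their counts and medians beside those of all genes, and no list was tested.

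**Figure D5:**
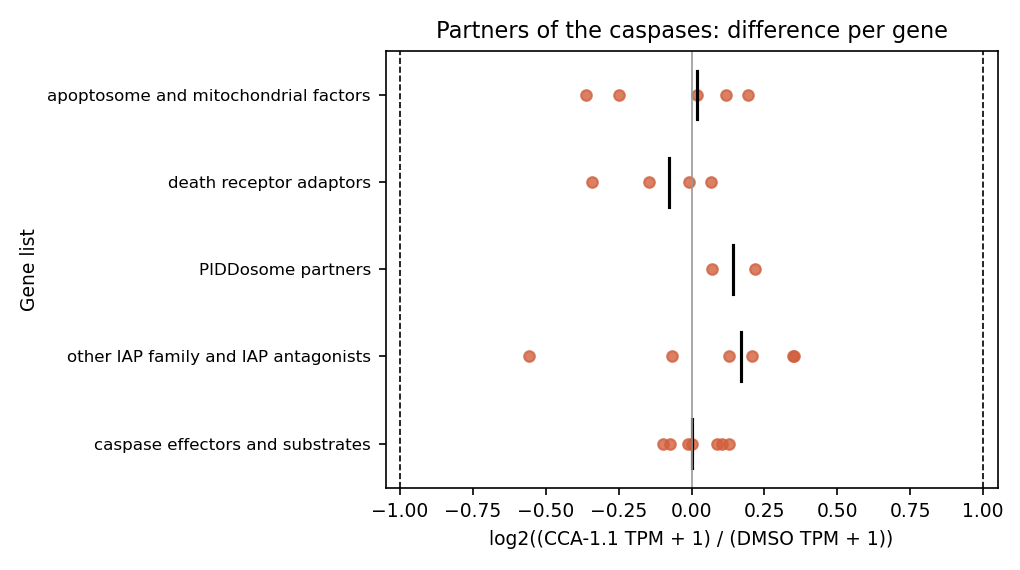
Difference log2((CCA-1.1 TPM + 1) / (DMSO TPM + 1)) of each of the 24 partner genes, 1 point per gene and 1 row per list, with the median over the whole list as a vertical bar and 2-fold as dashed lines. With all transcripts summed, the points lie inside the 2-fold lines, from -0.56 for BIRC5 to 0.35 for NAIP, and PYCARD, listed at 0 in both libraries, is drawn at 0.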

How the data were processed

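U87 cells treated for 72 h with DMSO or CCA-1.1 were sequenced on an Illumina instrument after mRNA enrichment, 1 library each. After read quality control (FastQC 0.11.9, MultiQC 1.1), the authors ran Kallisto pseudo-alignment on the human reference GRCh38.p14. The deposited unit is TPM per RefSeq transcript, rounded to 2 decimals, with column sums of 999999 and 1000000. TPM keeps no read depth, so the precision of a value and the limit behind a 0 are unknown. Bias correction is not given in the sources used here, and neither is strand.

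Of 177816 transcripts, 169966 matched a gene symbol of the RefSeq table of GRCh38.p14 (169411 with the version), and TPM without a symbol came to 0.941% and 0.967%. TPM was summed per gene and compared as log2((CCA-1.1 + 1) / (DMSO + 1)), with a pseudocount of 1 TPM, which understates differences of low values. No test was possible with 1 library per condition. Sequences are from the coding sequences of GENCODE v44lift37 transcripts, gene positions from RefSeq (GRCh38.p14). Python 3.11.15, pandas 2.3.3, numpy 2.4.6 and matplotlib 3.10.9 were used. All deposited sample columns were used.

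The members and gene lists were chosen with earlier results of these data known. The rule for names took all 8 members, their transcripts of at least 1 TPM or past 2-fold, and the highest and lowest gene of each list. *CYCS*, *FADD*, *TRADD*, *BIRC3*, *BIRC6*, *PAK2*, *ACIN1*, *PYCARD*, NM_003879.7 and overlapping genes were added after their values were seen. Some items are not reported here. Alternatives were other pseudocounts, a minimum mean of 1 TPM, median-ratio scaling, curated transcripts only, mRNA transcripts only and identifiers matched only with their version.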

Additional observations from a re-analysis of the deposited data

How the results depend on the processing

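Under the alternatives, 141 values stayed close to those given and 17 moved, by more than 0.196 on the log2 scale (the SD of differences over 7906 protein-coding genes averaging 10 TPM or more), 5 percentage points of a share or 1.5-fold of a count, and 0 reversed by that measure. That log2 tolerance is wider than the difference of every member except *CFLAR*, so a change of sign could count as close. *CASP8*, at 0.07 as given and -0.06 with mRNA transcripts only, was such a case. The minimum mean of 1 TPM could not alter the gene-level values of the members, which all averaged more than that. No member was past 2-fold under any of the 6 settings, and *CFLAR* stayed between -0.29 and -0.23. With curated transcripts only, *CASP8* became -0.21, the median of the apoptosome and mitochondrial factors -0.25 and that of the PIDDosome partners 0.74. The last rested mainly on *PIDD1*, whose curated transcripts were at 0.06 TPM (DMSO) and 1.83 TPM (CCA-1.1). The medians of the death receptor adaptors (0.06) and of the effectors and substrates (-0.02) changed sign within that tolerance, and the log2 change of the ratio of *CFLAR* to *CASP8* became -0.06. The leading transcripts then held 24.1% of *CASP8* and 44.8% of *CASP9* with CCA-1.1, and 77.8% (DMSO) and 71.8% (CCA-1.1) of *CASP6*. Genes past 2-fold, 339 higher and 297 lower, numbered 1714 and 1277 with a pseudocount of 0.1 TPM, 3872 and 2959 with 0.01 TPM, and 26 and 32 with mRNA transcripts only. Member transcripts past 2-fold, 2 as given, numbered 26 and 36 with those pseudocounts and 0 among those averaging 1 TPM or more. The causes were not tested. The pseudocounts tried on NM_001127184.4 alone and the transcript classes tried on ratios and single partner genes were picked once values were known. No paired analysis was possible because each condition had a single library, and for the same reason no library could be left out. Depth is unknown, so low transcripts are the least certain.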
